A study of Mus musculus with 12 samples.

Results

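The genes described are the matrix metalloproteinases (MMPs), their tissue inhibitors (TIMPs), the ADAM proteases, the ADAMTS proteases and the ADAMTS-like (ADAMTSL) proteins. They were chosen by symbol alone, as an Mmp, Adam, Adamts or Adamtsl name followed by a number, or Timp1 to Timp4. This gave 53 of the 14159 listed genes, namely 14 MMPs, 4 TIMPs, 16 ADAMs, 14 ADAMTS genes and 5 ADAMTSL genes. Of these, 48 averaged 10 or more normalized counts over the libraries and were tested. The other 5 were Adam21, Adam5, Adam32, Adamts8 and Mmp13, whose values in the 12 libraries lay between 0.928 and 20.5.

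Polyadenylated RNA of whole inguinal white adipose tissue (iWAT) was sequenced from mice of 2 genotypes at 2 temperatures, with 3 biological replicates numbered 0, 1 and 2 in each of the 4 groups. The Atf4AKO mice carried floxed Atf4 alleles and an adiponectin-driven Cre (Adipoq-Cre), so Atf4 was deleted in adipocytes and kept in the other cell types of the tissue. Their Atf4WT littermates carried the same floxed alleles without Cre, and both were on a C57BL/6 background. The RT groups stayed at room temperature and the cold groups spent 24 h in the cold, and the age and sex of these mice are not given in the sources used here. A value is a normalized count, the reads of a gene divided by the size factor of its library, and the libraries held between 25719476 and 29105147 reads in the listed genes. A gene was counted as differentially expressed (DEG) when its fold change was over 1.5 and its p-value before adjustment was under 0.05. Adjusted p-values follow Benjamini and Hochberg and were taken over the whole set of tested genes.

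MMPs are zinc proteases that cut collagens, proteoglycans and other matrix proteins, and TIMPs bind and block them. ADAMs are mostly membrane proteases that release the outer parts of receptors, ligands and adhesion proteins, and several members have no protease activity. ADAMTS proteases are secreted and trim procollagens and aggregating proteoglycans such as versican, while ADAMTSL proteins share their matrix-binding modules without the catalytic domain. In adipose tissue these genes are known mainly from stromal and vascular cells, and the matrix around adipocytes is remodelled as fat depots expand or shrink. In RNA of a whole tissue, fewer cells of a type and less RNA per cell cannot be told apart, which holds for each value given here.

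Atf4 itself was at 4107 to 5669 normalized counts in the Atf4WT libraries at RT and at 1469.7 to 1639 in those of Atf4AKO, and at 5756 to 7644 against 788 to 1578 after cold, so the labels and the targeted gene matched in all 12 libraries. The 8 adipocyte markers (Adipoq, Plin1 and others) were all listed and their summed level was between 700024 and 1189500. A pair of libraries stood apart: in Atf4WT cold replicate 1 and Atf4AKO cold replicate 1, the summed level of 8 fibroblast and progenitor markers was 33301 and 30926 normalized counts, against 65982 to 82059 in the other 4 cold libraries and 118153 to 177529 at RT. The 11 listed macrophage markers summed to 15016 and 6011 in that pair and to between 26973 and 49939 in the other 10 libraries. Endothelial markers were not low in the pair, with a summed level of 23204 and 21931 against 18463 to 21715 in the other cold libraries. The 13 T cell markers summed to 2416, 7969 and 10113 in replicates 0, 1 and 2 of Atf4WT cold, against 1523 to 2708 at RT and 1760.2, 569 and 1197 in Atf4AKO cold. By this sum replicates 1 and 2 were high and replicate 0 was within the RT range, but Thy1 alone held 1337 of the 2416. As a mean log2 level, replicate 0 was at 6.623, above the 4.705 to 6.535 of the RT libraries. Replicates 1 and 2 were at 9.068 and 9.366. The 11 B cell markers summed to 7529.7, 11578 and 17959.7 in Atf4WT cold and to 7970.1 in Atf4WT RT replicate 2, against 2797 to 4168 in the other 8 libraries. The 4 skeletal muscle markers summed to 71116 in Atf4WT RT replicate 2, to 25612 in Atf4WT cold replicate 0 and to 2681 in Atf4AKO cold replicate 1, against 65.9 to 840.1 in the other 9 libraries.

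Per kb of exon, the inhibitors were among the most abundant of the 53 genes in Atf4WT iWAT at RT. Timp2 had 3253 ± 322 normalized counts per kb (SD, n = 3) and Timp3 had 2221 ± 256, and their ranges over the libraries did not overlap. Adam15, a membrane-bound ADAM protease, followed with 1682 ± 77.4 per kb, and the gelatinase Mmp2 with 1640.0 ± 312, and the ranges of this pair overlapped. Timp4 had 928 ± 214 and Adam9 had 910 ± 30.0 normalized counts per kb, also with overlapping ranges. The stromelysin Mmp3, the membrane-type collagenase Mmp14, the procollagen N-proteinase Adamts2 and the aggrecanase Adamts5 came next, from 660 per kb for Mmp3 to 495 per kb for Adamts5. These 4 had ranges that overlapped from each to the next, and the highest library of Mmp3 (846 per kb) was below the lowest of Adam9 (889 per kb). At the lower end, Timp1 had 51.5 ± 10.6 per kb, and 12 genes had under 5 per kb, among them Mmp25, Adam4 and Adamts18.

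**Figure D1:**
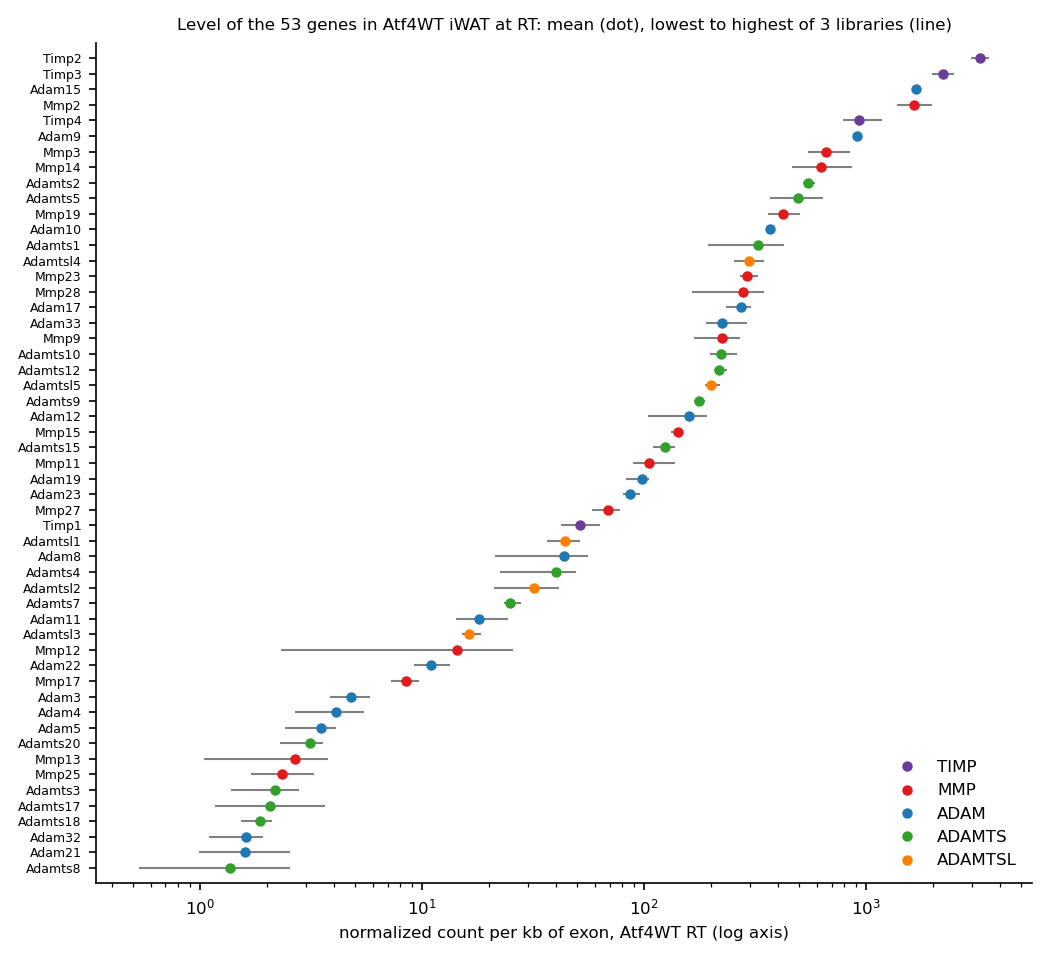
Normalized counts per kb of exon (log axis) of the 53 genes in Atf4WT iWAT at RT, ordered by the mean of 3 libraries; lines run from the lowest to the highest library and colours give the family. Timp2 with 3253 and Timp3 with 2221 lead the order, and most ranges overlap that of the next gene.

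Some of these genes sit close together or share sequence with a neighbour on the mm10 build. Adamts1 (chromosome 16, 85793827 to 85803113) and Adamts5 (chromosome 16, 85856173 to 85901828) lie side by side on the minus strand, and Mmp3 (chromosome 9, 7445822 to 7455975, plus strand) lies in the MMP cluster with Mmp12, Mmp13 and Mmp27. Timp1, Timp3 and Timp4 each overlap a synapsin gene on the opposite strand, and Timp4 shares 90 exonic bases with Syn2. Adam17 shares 311 exonic bases with Iah1 on the opposite strand, Mmp19 shares 789 with Tmem198b, and Adamts7 shares 122 with Tbc1d2b and Mmp28 shares 466 with 1700020L24Rik. Since the strand setting of the counting is not stated, reads of these shared exons cannot be assigned, and the values of Timp4, Adam17, Mmp19, Adamts7 and Mmp28 are uncertain to that extent. Adam3, Adam8, Adam15, Adam19, Adamts8, Adamts9 and Mmp12 share exonic bases with opposite-strand genes that are not among the listed genes.

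The sequences before the starts of 3 genes are shown because Adamts2 and Adamtsl2 fell with cold in both genotypes and Mmp3 in Atf4AKO, as described below, and because they hold the kinds of promoter motif found over the family. They were taken from RefSeq promoters of the GRCm38.p6 build, which were at hand for 34 of the 53 genes, and capitals mark the motifs. Adamts2 (chr11:50601835-50602083, plus strand) holds 5 GC boxes, Adamtsl2 (chr2:27079129-27079378, plus strand) a GC box and a TATA motif, and Mmp3 (chr9:7445572-7445821, plus strand) an AP-1 and a TATA motif.
Adamts2: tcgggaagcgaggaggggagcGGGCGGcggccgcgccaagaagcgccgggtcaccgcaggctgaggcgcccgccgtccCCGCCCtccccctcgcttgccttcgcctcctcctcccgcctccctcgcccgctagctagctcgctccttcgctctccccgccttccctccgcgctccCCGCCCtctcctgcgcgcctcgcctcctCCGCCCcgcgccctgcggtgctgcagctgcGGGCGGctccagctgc
Adamtsl2: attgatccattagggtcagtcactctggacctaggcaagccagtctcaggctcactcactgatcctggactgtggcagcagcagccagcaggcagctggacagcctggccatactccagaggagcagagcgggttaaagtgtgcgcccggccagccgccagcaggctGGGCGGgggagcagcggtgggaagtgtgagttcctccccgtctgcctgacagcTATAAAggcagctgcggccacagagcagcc
Mmp3: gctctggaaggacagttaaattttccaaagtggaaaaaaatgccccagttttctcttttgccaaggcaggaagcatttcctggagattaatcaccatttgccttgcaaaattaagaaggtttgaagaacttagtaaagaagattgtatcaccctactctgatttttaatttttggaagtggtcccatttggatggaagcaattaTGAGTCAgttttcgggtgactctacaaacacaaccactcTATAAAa
The windows searched ran from 250 bases before to 50 bases after the start, on both strands. The GC box GGGCGG stood in 23 of the 34 windows (67.6%) and in 35.7% of all 32851 promoters of the table. The AP-1 motif TGACTCA stood in those of Adam19, Mmp13 and Mmp3 (8.82%, against 5.2% of all), and TATAAA in those of Adamts1, Adamtsl2, Mmp13 and Mmp3 (11.8%, against 13.6%). The cAMP response element TGACGTCA was in 0 of 34 windows and in 1.79% of all promoters, and the composite element of ATF4 and C/EBP factors, searched as TGATGNAA, in 0 of 34 and 3.97% of all. No motif overlapped another of a different kind in the 3 sequences shown. These are matches of letters in a short window and not sites of binding. For the 34 genes a single promoter each was searched, that nearest the annotated start, while the 32851 promoters were not limited in this way. The sets are thus unlike, and a higher share is not shown to be a trait of these genes.

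The first question was how these genes changed with 24 h of cold exposure in each genotype. In Atf4WT iWAT, 12 of the 48 tested genes were DEGs, 4 higher after cold (Adam11, Adam12, Adam4 and Mmp25) and 8 lower (Timp3, Timp4, Adamts2, Adamts5, Adamts15, Adamtsl2, Adamtsl3 and Adamtsl4). Over all 13404 tested genes, 10.9% were DEGs higher after cold and 10.3% DEGs lower. In Atf4AKO iWAT, 15 of 48 were DEGs, 4 higher (Adam11, Adam12, Adam4 and Adamts18) and 11 lower (Timp3, Mmp3, Mmp9, Mmp23, Adam22, Adam23, Adamts2, Adamts5, Adamtsl1, Adamtsl2 and Adamtsl3), against 8.3% higher and 8.92% lower over all tested genes. The adjusted p-value was under 0.05 for 13 of the 48 in Atf4WT (31.9% of all tested genes) and for 11 in Atf4AKO (25.9%). The median log2 fold change of the 48 was -0.34 in Atf4WT and -0.32 in Atf4AKO, where that of all tested genes was 0.0026 and -0.03. The 8 genes called in both genotypes were 66.7% of the Atf4WT calls and 53.3% of the Atf4AKO calls. This share was not computed over all tested genes, so it is not shown to be particular to these genes. With both cold replicate 1 libraries left out, 12 and 15 genes were called, but not the same ones. In that fit Mmp25 lost its call in Atf4WT, and Adam22, Adamts18 and Adamtsl3 lost theirs in Atf4AKO. Without both Atf4WT libraries high in skeletal muscle markers 11 were called in Atf4WT, among them neither Adam12, Adamts15 nor Adamtsl3. With a lymphocyte score (the mean log2 level of the T and B cell markers in a library) as a covariate, 8 and 13 were called. Under this score Adam11, Adam4, Adamts5, Adamts15, Adamtsl4, Mmp25 and Timp4 lost their calls in Atf4WT, and Adam22, Adamtsl1 and Adamtsl3 in Atf4AKO. The B cell part of this score was 8.911 to 10.49 in Atf4WT cold and 8.977 in Atf4WT RT replicate 2, against 4.315 to 6.728 in the other libraries. The covariate thus takes up part of each contrast with Atf4WT cold, and a change under it cannot be told apart from one of the group. Without Atf4AKO RT replicate 0 the Atf4AKO count was 9.

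**Figure D2:**
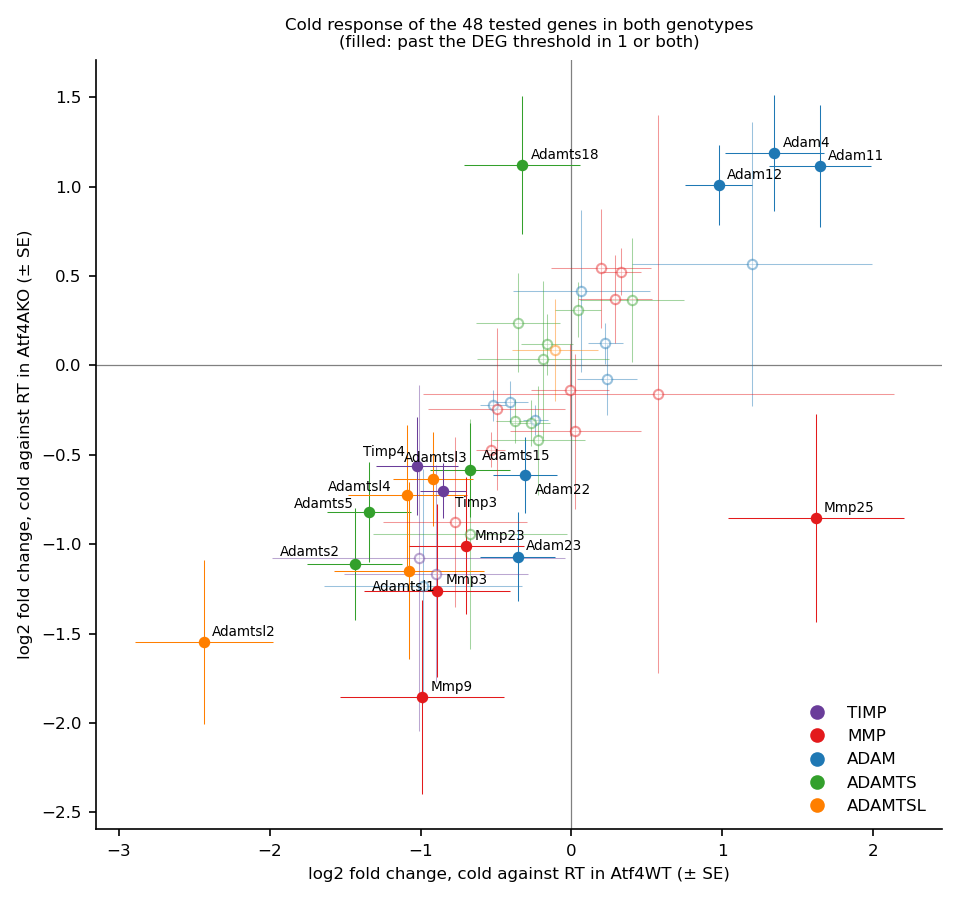
Log2 fold change of cold against RT in Atf4WT (horizontal axis) and in Atf4AKO (vertical axis) for the 48 tested genes, with bars of 1 SE; filled points passed the DEG threshold in 1 or both genotypes. Adam11, Adam12 and Adam4 were higher in both, Adamtsl2 was farthest down in Atf4WT at -2.44 and Mmp9 in Atf4AKO at -1.86, and Mmp25 and Adamts18 lay off the diagonal.

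Timp3 fell with cold in both genotypes, and the log2 fold changes of the other 3 inhibitors were below 0, of which Timp4 in Atf4WT passed the test. Timp3, a matrix-bound inhibitor that also blocks ADAM17 and the aggrecanases, was at 9362, 11761 and 10335 normalized counts in the Atf4WT libraries at RT and at 5590.2, 6662 and 5201 after cold. In Atf4AKO it was at 10322, 9729.9 and 9999 at RT and at 5458, 5338 and 8022 after cold. Each cold library was below each RT library in both genotypes, with a log2 fold change of -0.85 ± 0.15 SE, adjusted p = 0.00236 in Atf4WT and -0.70 ± 0.15 SE, adjusted p = 0.00747 in Atf4AKO. Without the pair of libraries low in fibroblast markers the values were -0.95 and -0.60, both past the threshold. Timp4, an inhibitor known for its high level in fat and heart, was at 4646, 6923 and 4844 at RT and 2903, 3643 and 1758 after cold in Atf4WT, and it fell with -1.02 ± 0.27 SE, adjusted p = 0.0161. In Atf4AKO its values were 5760.4, 4036 and 3996 at RT and 2423, 3937 and 3013 after cold, which did not overlap either but did not pass the test (-0.56 ± 0.27 SE, adjusted p = 0.152). The difference between the genotypes was 0.46 ± 0.39 SE, adjusted p = 0.996. With the lymphocyte score as a covariate the change of Timp4 in Atf4WT was -0.54 and no longer past the threshold, and the part of lymphocytes in it was not tested further.

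Timp2, which blocks MMPs and also helps Mmp14 activate the Mmp2 proenzyme, was the most abundant inhibitor per kb and did not pass the test. It was at 11878, 10974 and 13342 normalized counts in Atf4WT at RT and 11187, 2955 and 8119 after cold, and at 15494, 8797 and 12932 and 6566, 1923 and 12395 in Atf4AKO. Replicate 1 was the lowest cold library in each genotype, and the RT and cold ranges overlapped. Its log2 fold changes were -0.90 ± 0.61 SE, adjusted p = 0.282 and -1.16 ± 0.61 SE, adjusted p = 0.181. Timp1, the inducible inhibitor, had few reads, with 56.04, 37.5 and 43.6 in Atf4WT at RT, 38.01, 10.6 and 25.4 after cold, 46.5, 41.8 and 51.02 in Atf4AKO at RT and 109, 2.27 and 30.1 after cold. Its cold libraries in Atf4AKO spanned the lowest and the highest of the 12 values. The log2 fold changes of Timp1 were -1.01 ± 0.97 SE, adjusted p = 0.45 and -1.08 ± 0.97 SE, adjusted p = 0.436. In Atf4AKO the mean normalized count of Timp1 was 46.4 at RT and 47.3 after cold, so its mean was not lower after cold, where replicate 1 was at 2.27 and replicate 0 at 109.

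Replicate 1 was low in the cold for further genes. In 15 of the 48 tested genes (31.2%) the 2 lowest of the 6 cold values were those of Atf4WT replicate 1 and Atf4AKO replicate 1, against 10.7% of all 13404 tested genes. They were 6 of 13 MMPs (Mmp2, Mmp3, Mmp12, Mmp14, Mmp23 and Mmp27), Timp1 and Timp2, 4 of 13 ADAMs (Adam8, Adam17, Adam19 and Adam33), Adamtsl1 and Adamtsl4, and of the 13 ADAMTS genes Adamts2. The fibroblast and macrophage markers were at their lowest in the same pair of libraries, and their part in these values was not tested.

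**Figure D3:**
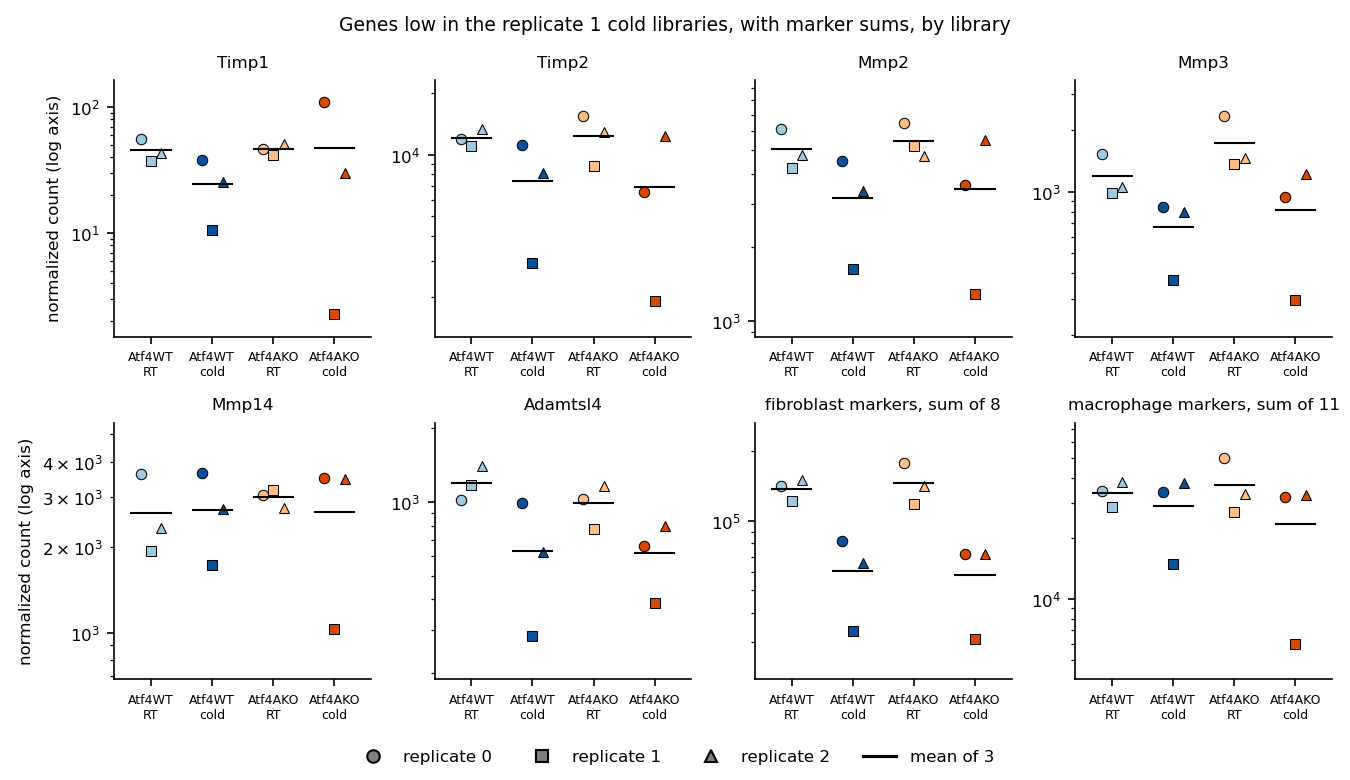
Normalized counts (log axis) of 6 genes and the summed level of 8 fibroblast and 11 macrophage markers in each of the 12 libraries; symbols give the replicate number and lines the mean of 3. The squares of the cold groups, replicate 1, are the lowest cold values of each panel, with Timp2 at 2955 and 1923 against 6566 to 12395 in the other cold libraries.

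The MMPs were counted first, and the shares over all tested genes stand beside the family and list counts that follow. These shares were 10.9% higher and 10.3% lower with cold in Atf4WT, and 8.3% and 8.92% in Atf4AKO. One of 13 tested MMPs was a DEG in Atf4WT (Mmp25, higher) and 3 in Atf4AKO (Mmp3, Mmp9 and Mmp23, lower), and the medians of the 13 were -0.01 and -0.37. Mmp3, Mmp9 and Mmp23 did not pass the test of the difference between the genotypes (adjusted p = 0.996 for each, limma). Mmp9, a gelatinase that myeloid cells also make, was at 735, 532 and 861 normalized counts in Atf4WT at RT and 429, 197 and 505 after cold. In Atf4AKO it was at 1163, 448 and 1035 at RT and 186, 117 and 518 after cold. The cold values lay below the RT values in Atf4WT and overlapped in Atf4AKO, where the spread was wider. It fell in Atf4AKO (-1.86 ± 0.54 SE, adjusted p = 0.0278), its value in Atf4WT was -0.99 ± 0.54 SE, adjusted p = 0.185, and the difference between them was -0.87 ± 0.77 SE, adjusted p = 0.996. Without the pair low in fibroblast and macrophage markers its value in Atf4AKO was -1.39, and without Atf4AKO cold replicate 2 it was -2.46, both past the threshold.

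Mmp2, the gelatinase with the highest level per kb among the MMPs, did not pass the test. Its values were 6108, 4236 and 4800.0 in Atf4WT at RT and 4513, 1624 and 3399 after cold, and 6467, 5196 and 4750.0 and 3618, 1294 and 5516 in Atf4AKO. Replicate 1 was lowest in each cold group, and the RT and cold ranges overlapped. The log2 fold changes were -0.77 ± 0.47 SE, adjusted p = 0.237 and -0.88 ± 0.47 SE, adjusted p = 0.197. Mmp14, the membrane-type protease that activates Mmp2, was at 3609.8, 1938 and 2336 and 3655, 1733 and 2727 in Atf4WT and at 3057, 3184 and 2749.8 and 3494, 1026 and 3463 in Atf4AKO, at RT and after cold. The groups overlapped throughout, with 0.03 ± 0.43 SE, adjusted p = 0.971 and -0.37 ± 0.43 SE, adjusted p = 0.558.

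Mmp3, a stromelysin that cuts proteoglycans and activates other MMPs, is added here after its values were seen. It was at 1523, 991 and 1053 in Atf4WT at RT and 845, 369 and 797 after cold, and at 2339.7, 1362 and 1464 and 944, 295 and 1217 in Atf4AKO. Each cold library was below each RT library in both genotypes. It fell in Atf4AKO (-1.26 ± 0.48 SE, adjusted p = 0.0771) and did not pass the test in Atf4WT (-0.89 ± 0.48 SE, adjusted p = 0.181). Mmp23, a membrane-bound MMP without the usual hemopexin domain, was at 389.6, 395 and 468 in Atf4WT at RT and 398, 142 and 298 after cold. In Atf4AKO, where it fell (-1.01 ± 0.38 SE, adjusted p = 0.0752), it went from 489.9, 312 and 392 to 267, 112 and 243 with no overlap. Its value in Atf4WT was -0.70 ± 0.38 SE, adjusted p = 0.188. Without Atf4AKO cold replicate 1, Mmp3 was at -0.64 and Mmp23 at -0.62 in Atf4AKO, and without Atf4AKO RT replicate 0 they were at -1.02 and -0.85, in each case short of the DEG threshold.

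Smaller changes under the 1.5-fold limit passed the adjusted test in 2 further MMPs. Mmp15, a membrane-type MMP, was lower after cold with -0.53 ± 0.097 SE, adjusted p = 0.00236 in Atf4WT and -0.47 ± 0.097 SE, adjusted p = 0.0053 in Atf4AKO. Mmp19, which shares exonic bases with Tmem198b, had 0.33 ± 0.13 SE, adjusted p = 0.0775 and 0.52 ± 0.13 SE, adjusted p = 0.0146. In both genotypes Mmp15 was lower in each cold library than in each RT library, and Mmp19 was higher without overlap in Atf4AKO. Mmp12, the macrophage elastase, had the widest spread of the 48 genes, from 9.07 to 621 normalized counts over the 12 libraries, with an SE of 1.56 on the log2 scale, so a change of a few fold was not detectable in it.

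The 3 genes that rose in both genotypes were ADAMs. Adam12, a protease known from mesenchymal progenitors, was at 1400.2, 1479 and 804 normalized counts in Atf4WT at RT and at 2779, 2179.6 and 2089.7 after cold, and at 1439.9, 1857 and 1399.9 and 2583, 3457 and 3418 in Atf4AKO. The cold libraries were above the RT libraries in both genotypes, with 0.97 ± 0.22 SE, adjusted p = 0.00767 in Atf4WT and 1.01 ± 0.22 SE, adjusted p = 0.0077 in Atf4AKO. These are folds of 1.97 and 2.01. In Atf4AKO it passed the threshold under each of 17 alternatives and in Atf4WT under 17 of 18. Without both libraries high in skeletal muscle markers, Atf4WT RT replicate 2 (the lowest Adam12 library) and Atf4WT cold replicate 0 (its highest cold library in Atf4WT), the Atf4WT value was 0.57, under the 1.5-fold limit. With the lymphocyte score as a covariate it was 1.87. The fibroblast and progenitor markers went the other way, with a median of -1.18 over 8 markers in each genotype and 5 of 8 lower as DEGs in each.

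Adam11, an ADAM without protease activity that is best known in neurons, was at 72.6, 78.9 and 125 in Atf4WT at RT and 228, 252 and 392 after cold, and at 71.6, 49.8 and 121 and 179, 127 and 197 in Atf4AKO. No cold library overlapped the RT libraries of its genotype. It rose with 1.65 ± 0.34 SE, adjusted p = 0.00462 in Atf4WT and 1.11 ± 0.34 SE, adjusted p = 0.034 in Atf4AKO. Adam4, a gene of 1 exon lying inside Cox16 on the same strand, had few reads, with 13.8, 6.74 and 10.2 in Atf4WT at RT, 21.6, 24.3 and 35.8 after cold, 12.1, 9.96 and 12.1 in Atf4AKO at RT and 24.4, 26.1 and 31.2 after cold. The groups did not overlap in either genotype, and it rose with 1.34 ± 0.33 SE, adjusted p = 0.0102 and 1.19 ± 0.33 SE, adjusted p = 0.0216. The exon of Adam4 shares no bases with exons of Cox16, but reads of unspliced Cox16 RNA could not be told apart from its own. The part of Cox16 in the rise was not tested. With the lymphocyte score as a covariate, Adam11 was at 0.67 and Adam4 at 0.99 in Atf4WT, both short of the threshold, and both kept their calls in Atf4AKO.

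Adam23 and Adam22, which also lack protease activity and bind LGI proteins in neurons, fell in Atf4AKO alone by the test. Adam23 was at 758, 604 and 468 in Atf4AKO at RT and 376, 186 and 329 after cold (-1.07 ± 0.25 SE, adjusted p = 0.00966). In Atf4WT it was at 624, 545 and 524 and 385, 436 and 505 (-0.36 ± 0.25 SE, adjusted p = 0.295), and no cold library overlapped the RT libraries in either genotype. The difference of the genotypes for Adam23 was -0.71 ± 0.35 SE, adjusted p = 0.765. Adam22 went from 125, 89.6 and 140.1 to 87.2, 66.9 and 74.1 in Atf4AKO (-0.61 ± 0.21 SE, adjusted p = 0.0553) and was at 112, 99.1 and 144 and 105, 91.8 and 86.6 in Atf4WT (-0.31 ± 0.21 SE, adjusted p = 0.29), with a difference of -0.30 ± 0.30 SE, adjusted p = 0.996. Without Atf4AKO cold replicate 1, Adam22 was at -0.52, without Atf4AKO RT replicate 0 at -0.56 and without Atf4AKO RT replicate 2 at -0.48, short of the threshold in each case.

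The main sheddases changed little. Adam10, the protease that cuts Notch receptors, was at 1754, 1711 and 1643 in Atf4WT at RT and 1320, 1416 and 1607 after cold, and at 1854, 1749 and 1630.0 and 1384, 1371 and 1471 in Atf4AKO. Its cold values were below its RT values in both genotypes by small amounts, with -0.24 ± 0.084 SE, adjusted p = 0.0508 and -0.31 ± 0.084 SE, adjusted p = 0.0215. Adam17, the protease that releases TNF and EGF receptor ligands, was at 1287, 1057 and 1371 and 1433, 1299 and 1598 in Atf4WT and at 1211, 1183 and 1418 and 1367, 1340.1 and 1437 in Atf4AKO, with overlap. Its log2 fold changes were 0.22 ± 0.12 SE, adjusted p = 0.157 and 0.12 ± 0.12 SE, adjusted p = 0.449. Of 10 tested regulators of these sheddases, 1 was higher and 1 lower in Atf4WT, with Tspan33 at 1.37 (adjusted p = 0.0744) and Tspan17 at -0.90 (adjusted p = 0.00451), and Tspan17 alone was called in Atf4AKO, at -0.61 (adjusted p = 0.0341). Tspan33 was at 22.6, 69.7 and 92.3 normalized counts in replicates 0, 1 and 2 of Atf4WT cold, high in the same libraries as the T cell markers, whose part in its change was not tested. Of 20 tested substrates, 2 were higher and 2 lower in Atf4WT and 0 and 3 in Atf4AKO. Dlk1, a preadipocyte protein that is shed, was at -1.87 in Atf4WT and -2.14 in Atf4AKO, and Btc, an EGF receptor ligand, at -1.37 and -1.19. Adam9 and Adam15 were lower in Atf4WT under the 1.5-fold limit, with -0.52 ± 0.086 SE, adjusted p = 0.00142 and -0.41 ± 0.12 SE, adjusted p = 0.0228.

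**Figure D4:**
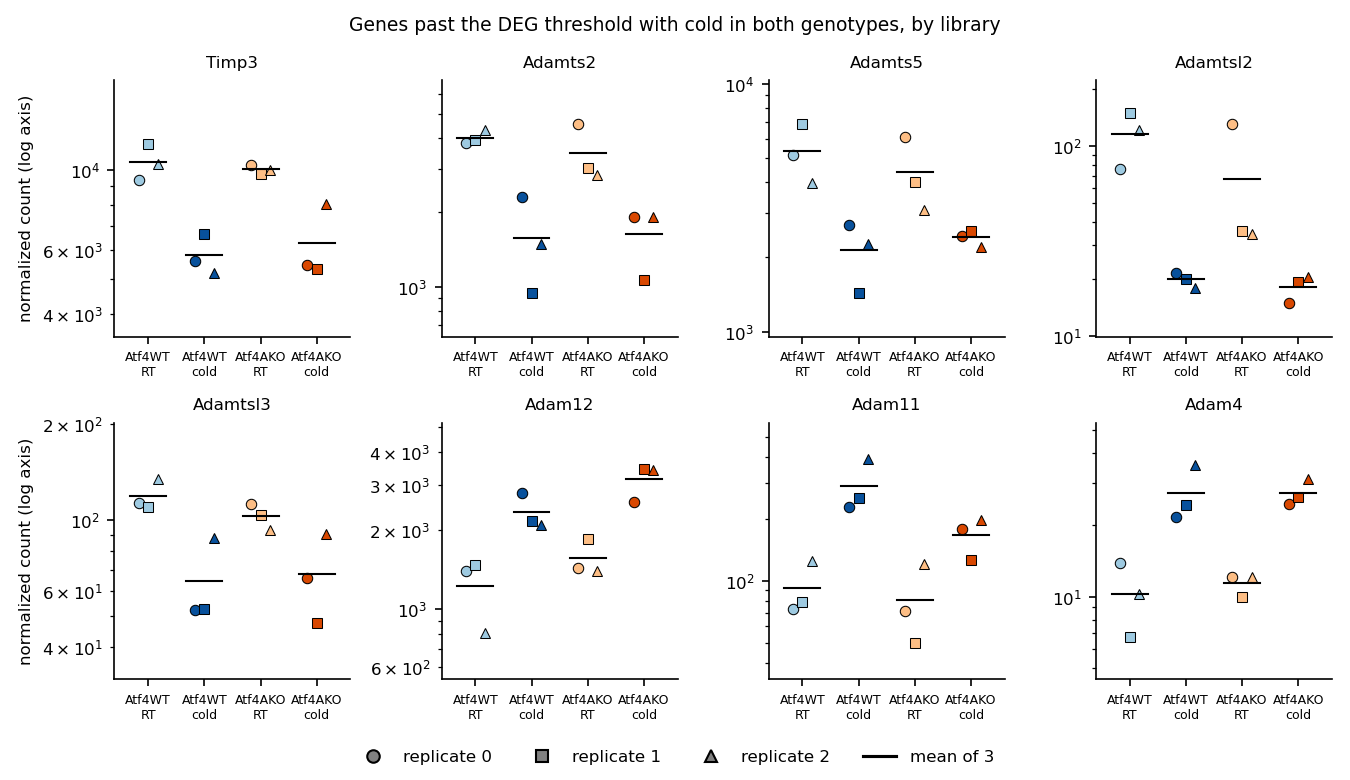
Normalized counts (log axis) of the 8 genes past the DEG threshold with cold in both genotypes, in each library; symbols give the replicate number and lines the mean of 3. In each panel the 3 cold values of a genotype lie all above (Adam12, Adam11, Adam4) or all below (Timp3, Adamts2, Adamts5, Adamtsl2, Adamtsl3) the 3 RT values of that genotype. This separation goes largely with the choice of the genes by the same values.

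The ADAMTS proteases called in Atf4WT were lower, 3 of 13 tested, and in Atf4AKO 2 were lower and 1 higher. Adamts2, which removes the amino-terminal propeptide of fibrillar procollagens, was at 3791, 3923 and 4282 normalized counts in Atf4WT at RT and 2300.0, 942 and 1485 after cold. In Atf4AKO it was at 4559, 3015 and 2833 and 1905, 1061 and 1909. Cold and RT libraries did not overlap, and it fell with -1.44 ± 0.31 SE, adjusted p = 0.00609 and -1.11 ± 0.31 SE, adjusted p = 0.0244. Without both cold replicate 1 libraries the values were -1.11 and -0.83, still past the threshold. Adamts5, an aggrecanase that also cuts versican, was at 5154, 6888 and 3983 in Atf4WT at RT and 2702, 1434 and 2249.8 after cold, and at 6074, 4014 and 3101 and 2442, 2558 and 2199 in Atf4AKO. Again cold and RT did not overlap, with -1.34 ± 0.28 SE, adjusted p = 0.0048 and -0.82 ± 0.28 SE, adjusted p = 0.0509. Without Atf4AKO RT replicate 0, its highest library in Atf4AKO, the value there was -0.56 and short of the threshold, and with the lymphocyte score as a covariate the Atf4WT value was -0.78, also short of it.

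Adamts15, another aggrecanase, went from 652, 815 and 750.1 to 526, 493 and 378 in Atf4WT (-0.67 ± 0.27 SE, adjusted p = 0.074). It lost its call under 5 of 18 alternatives, among them leaving out Atf4WT RT replicate 1 (-0.60), RT replicate 2 (-0.66) or cold replicate 2 (-0.53). In Atf4AKO it was at 616, 978 and 719 and 777, 346 and 477, with overlap (-0.58 ± 0.27 SE, adjusted p = 0.127). Adamts1, the versican-cutting neighbour of Adamts5 on chromosome 16, did not pass the test. It was at 1748, 2085 and 949 and 1078, 1481 and 1037 in Atf4WT and at 1463, 1011 and 809.9 and 1252, 1230.1 and 1279.7 in Atf4AKO, and the groups overlapped (-0.35 ± 0.28 SE, adjusted p = 0.354 and 0.24 ± 0.28 SE, adjusted p = 0.554).

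All 5 ADAMTSL genes were tested, and 3 fell in each genotype. Adamtsl2, whose protein binds fibrillin microfibrils, had the lowest log2 fold change of the 48 in Atf4WT, from 76.3, 149 and 121 at RT to 21.6, 20.1 and 17.9 after cold. In Atf4AKO it went from 131, 35.8 and 34.3 to 14.9, 19.3 and 20.4. The 6 cold values were close to each other and below every RT value, with -2.44 ± 0.46 SE, adjusted p = 0.00288 and -1.55 ± 0.46 SE, adjusted p = 0.0295, and a difference of 0.89 ± 0.65 SE, adjusted p = 0.984. Without Atf4AKO RT replicate 0, its highest library in Atf4AKO, the value there was -0.92, still past the threshold. Adamtsl3 went from 113, 109.7 and 134 to 52.4, 52.8 and 87.6 in Atf4WT and from 112, 104 and 92.8 to 65.9, 47.6 and 90.3 in Atf4AKO, without overlap (-0.92 ± 0.26 SE, adjusted p = 0.0223 and -0.64 ± 0.26 SE, adjusted p = 0.0993). Without both Atf4WT libraries high in skeletal muscle markers its Atf4WT value was -0.70, short of the threshold. Its Atf4AKO call was lost under 7 of 17 alternatives, among them edgeR and each of 4 single libraries left out, with values from -0.64 without cold replicate 0 and -0.63 without RT replicate 1 to -0.57 without RT replicate 0 and -0.41 without cold replicate 1.

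Adamtsl4, which also binds fibrillin microfibrils, went from 1023, 1174 and 1404 to 989, 283 and 624 in Atf4WT (-1.09 ± 0.39 SE, adjusted p = 0.055), without overlap. Without Atf4WT cold replicate 1 it was at -0.60 and without RT replicate 2 at -0.97, in both cases short of the DEG threshold. Its Atf4AKO values were 1029, 778 and 1162 and 661, 388 and 798 (-0.73 ± 0.39 SE, adjusted p = 0.197). Adamtsl1, added here after its values were seen, was called in Atf4AKO, from 508, 318 and 362 to 204, 80.5 and 323 with overlap (-1.15 ± 0.50 SE, adjusted p = 0.112), and its value in Atf4WT was -1.07 ± 0.50 SE, adjusted p = 0.121. That call was lost without Atf4AKO RT replicate 0 (-0.95), RT replicate 2 (-1.20), cold replicate 0 (-1.26) or cold replicate 1 (-0.59), and with edgeR (-0.96).

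Genes of the same matrix systems were counted from lists. Beside these counts, 10.9% of all tested genes were DEGs higher and 10.3% DEGs lower with cold in Atf4WT. In Atf4AKO the shares were 8.3% and 8.92%. Of 12 tested ADAMTS substrates and cofactors, 8 were lower as DEGs in Atf4WT and 3 in Atf4AKO and 0 were higher, with medians of -0.80 and -0.55. The proteoglycan Bgn was at -0.91 (adjusted p = 0.00237) and the cartilage oligomeric matrix protein gene Comp at -2.01 (adjusted p = 0.00424) in Atf4WT, and Fmod, a small collagen-binding proteoglycan, was at -1.81 (adjusted p = 0.0573) in Atf4AKO. In Atf4WT Fmod was at 0.24 (adjusted p = 0.801), with 36.98, 119 and 174 normalized counts after cold, highest in replicates 1 and 2 as the T cell markers were. Of 11 tested fibrillin microfibril genes, 3 were lower in Atf4WT and 2 in Atf4AKO, with Fbln5, an elastic fibre protein, at -1.01 (adjusted p = 0.00252) and -0.64 (adjusted p = 0.027). Of 11 genes of the plasminogen system and MMP activation, 1 was higher and 2 lower in Atf4WT and 3 lower in Atf4AKO. Serpine2, an inhibitor of plasminogen activators and thrombin, was at -1.71 (adjusted p = 0.00148) and -1.38 (adjusted p = 0.00527), and Pcsk6, a proprotein convertase, at -1.07 and -0.74. Of 5 other protease inhibitors 2 were lower in each genotype, with Serpinh1, a collagen chaperone of the serpin family, at -0.997 and -0.914. The 8 fibroblast and progenitor markers, among them Col1a1, Col3a1 and Dcn, were lower in point estimate throughout, and their part in these counts was not tested. Of 3 tested metalloproteases outside the symbol rule, Adam1a was higher in Atf4AKO at 0.86 (adjusted p = 0.0157).

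The second question was whether the genotypes differed. After cold, 4 of the 48 tested genes were DEGs between Atf4AKO and Atf4WT, with Adamts18 higher in Atf4AKO and Mmp25, Adam11 and Adam23 lower, where 0.358% of all tested genes were higher and 6.04% lower. None had an adjusted p-value under 0.05 in limma with all 12 libraries, in which 6 of 48 had an unadjusted p-value under 0.05, and 0.0298% of all tested genes passed the adjusted test. Limma gave 1 adjusted call among the genes without Atf4WT cold replicate 0, and 1 without both Atf4WT libraries high in skeletal muscle markers. Over all tested genes, 517 and 556 passed the adjusted test in these fits. edgeR gave 0 adjusted calls and DESeq2 gave 1, Mmp25, on the recovered reads. The median of the 48 was 0.08, against 0.05 for all tested genes. Without both cold replicate 1 libraries 0 of the genes were called, without Atf4WT cold replicate 1 or Atf4AKO cold replicate 1 alone 2, and without Atf4WT cold replicate 2 it was 1. The lymphocyte markers separated these groups, since all 13 tested T cell markers and 10 of 11 tested B cell markers were DEGs lower in Atf4AKO cold, with medians of -3.33 and -5.43.

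Mmp25, a membrane-anchored MMP known mainly from leukocytes, was at 11.3, 42.2 and 75.3 normalized counts in Atf4WT cold and at 8.50, 5.67 and 8.60 in Atf4AKO cold, without overlap. At RT it was at 9.19, 7.70 and 14.8 in Atf4WT and 13.01, 10.95 and 20.4 in Atf4AKO. The T cell markers were likewise lower in replicate 0 of Atf4WT cold than in replicates 1 and 2. Mmp25 was lower in Atf4AKO after cold (-2.02 ± 0.58 SE, adjusted p = 0.144) and higher with cold in Atf4WT (1.62 ± 0.58 SE, adjusted p = 0.0544), and the cold responses differed by -2.47 ± 0.82 SE, adjusted p = 0.489. Its value with cold in Atf4AKO was -0.85 ± 0.58 SE, adjusted p = 0.304. With the lymphocyte score as a covariate the genotype difference after cold was 0.20 and the cold response of Atf4WT -0.14, so both changed sign. As the score was itself high in Atf4WT cold, lymphocytes and the group cannot be told apart in these fits. The cold call in Atf4WT was also lost without Atf4WT RT replicate 1 (1.44), cold replicate 1 (1.45) or cold replicate 2 (1.04). Without Atf4WT cold replicate 0, whose T cell markers were the lowest of that group, the values were larger, at 2.36 for cold in Atf4WT, -2.76 between genotypes after cold and -3.21 for the difference of the responses.

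Adamts18, a secreted protease with few reads in this tissue, was at 11.3, 6.33 and 7.53 in Atf4WT cold and 11.7, 19.3 and 22.6 in Atf4AKO cold. At RT it was at 11.9, 8.66 and 11.1 in Atf4WT and 5.58, 6.97 and 10.2 in Atf4AKO. The cold values of Atf4AKO were above those of Atf4WT, but the lowest of the former and the highest of the latter were close. Its difference after cold was 0.99 ± 0.39 SE, adjusted p = 0.313, its cold response in Atf4AKO 1.12 ± 0.39 SE, adjusted p = 0.0521 and in Atf4WT -0.33 ± 0.39 SE, adjusted p = 0.545, and the difference between the responses 1.45 ± 0.54 SE, adjusted p = 0.575. Without Atf4WT cold replicate 1 the genotype difference was 0.83, without Atf4WT cold replicate 2 it was 0.94, without Atf4AKO cold replicate 1 it was 0.92 and without Atf4AKO cold replicate 2 it was 0.81, each short of the threshold. Its cold response in Atf4AKO was 0.95 without RT replicate 0 and 0.94 without cold replicate 2, and its difference of responses was 1.27 without Atf4AKO RT replicate 0, 1.29 without Atf4WT cold replicate 1 and 1.26 without Atf4AKO cold replicate 2, again short of it.

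Adam11 was lower in Atf4AKO after cold with -0.78 ± 0.34 SE, adjusted p = 0.399, and its values, given above, did not overlap between the genotypes in the cold. The call was lost without Atf4WT cold replicate 1 (-0.86), Atf4WT cold replicate 2 (-0.54), Atf4AKO cold replicate 0 (-0.83) or Atf4AKO cold replicate 1 (-0.59), and with the lymphocyte score as a covariate the value was 0.46. Adam23 was lower with -0.63 ± 0.25 SE, adjusted p = 0.329, also without overlap. Its call was lost under 8 of 18 alternatives, among them edgeR, DESeq2, a fit of only the groups compared and the lymphocyte score. It was at -0.63 without Atf4WT cold replicate 1, at -0.53 without Atf4WT cold replicate 2 and at -0.32 without Atf4AKO cold replicate 1, short of the threshold in each case. Under the 1.5-fold limit, Mmp19 and Adamts7 had unadjusted p-values of 0.0186 and 0.0208 with log2 fold changes of 0.36 and 0.46. No inhibitor passed the test between the genotypes after cold, with values from -0.26 ± 0.61 SE, adjusted p = 0.905 for Timp2 to 0.21 ± 0.27 SE, adjusted p = 0.814 for Timp4. For Timp1 the value was -0.03 ± 0.97 SE, adjusted p = 0.995, while its mean normalized counts were 24.7 and 47.3, so a change of a few fold was not detectable in it.

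**Figure D5:**
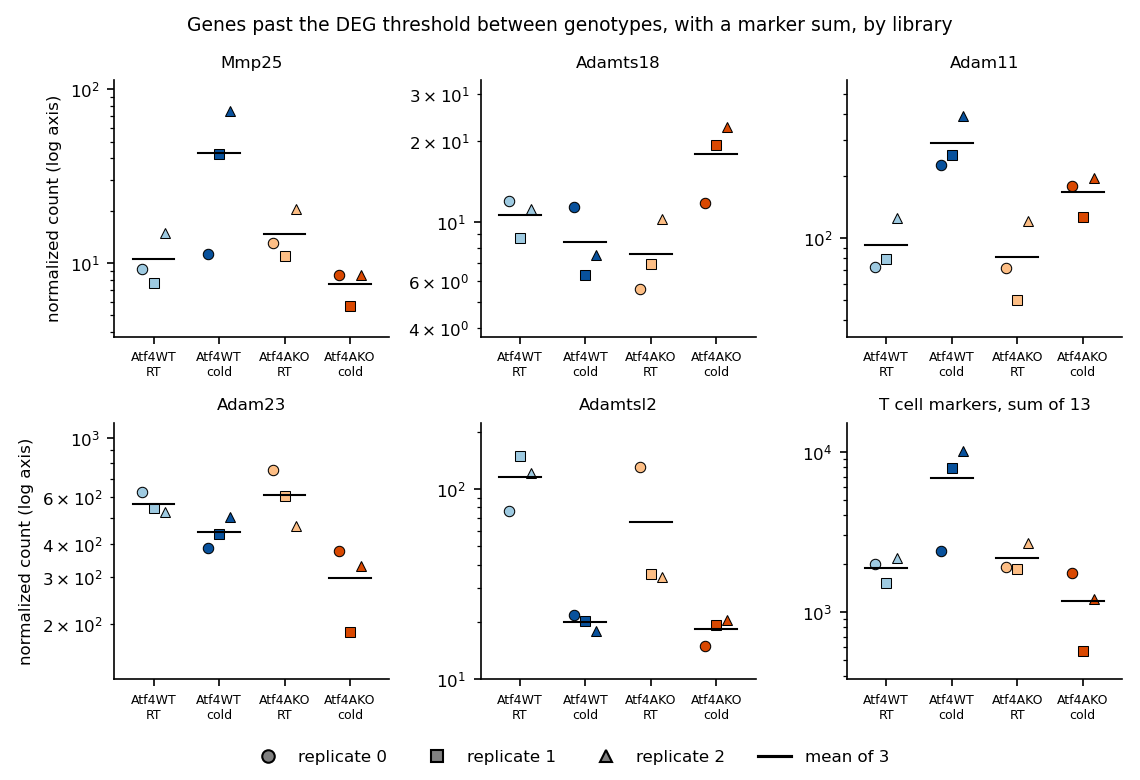
Normalized counts (log axis) of the 5 genes past the DEG threshold between genotypes and the summed level of 13 T cell markers in each library; symbols give the replicate number and lines the mean of 3. Mmp25 and the T cell markers are both high in Atf4WT cold replicates 1 and 2, and the 3 Atf4AKO cold values of Mmp25 lie between 5.67 and 8.60.

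At RT, 1 of the 48 genes was a DEG between the genotypes, Adamtsl2, lower in Atf4AKO, where 0.179% of all tested genes were higher and 0.283% lower. Its RT values, given above, overlapped because Atf4AKO replicate 0 was within the Atf4WT range, and its difference was -1.02 ± 0.46 SE, adjusted p = 1. The call was lost under 11 of 17 alternatives. These included edgeR (-0.80), DESeq2 (-0.78), the replicate block, a fit of only the groups compared, and leaving out Atf4WT RT replicate 1 (-0.81) or replicate 2 (-0.95) or Atf4AKO RT replicate 1 (-0.72) or replicate 2 (-0.69). Without Atf4AKO RT replicate 0 the value was -1.64. None of the 48 had an adjusted p-value under 0.05 in limma, edgeR or DESeq2, 2 had an unadjusted p-value under 0.05 in limma (Adamtsl2 and Adamts10), and 0.00746% of all tested genes passed the adjusted test. Without Atf4AKO RT replicate 0 the count was 2. The median of the 48 was 0.03, against 0.0056 for all tested genes. The 4 inhibitors lay between -0.25 for Timp4 and 0.04 for Timp1.

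In the test of the difference of the cold responses, 2 of 48 genes passed the threshold, Adamts18 toward a higher and Mmp25 toward a lower response in Atf4AKO, where 0.463% of all tested genes were higher and 4.17% lower. With all 12 libraries none of the 48 had an adjusted p-value under 0.05 in limma, edgeR or DESeq2, 3 had an unadjusted p-value under 0.05 in limma, and the adjusted share over all tested genes in limma was 0%. Without both Atf4WT libraries high in skeletal muscle markers, limma gave 1 adjusted call among the genes and 267 over all tested genes. Without Atf4WT cold replicate 1 the count was 1, and without both cold replicate 1 libraries it was 0, and without both Atf4WT libraries high in skeletal muscle markers it was 4. Genes called with cold in a single genotype are thereby not shown to differ between the genotypes by the adjusted test in limma with all 12 libraries. Of these genes, only Mmp25 and Adamts18 passed the unadjusted threshold. For Timp4, Mmp9, Adam22 and Adam23 the differences given above passed neither.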

How the data were processed

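The 12 libraries were made from polyadenylated iWAT RNA, 3 for each combination of genotype (Atf4WT, Atf4AKO) and temperature (RT, 24 h of cold). The deposited values are a normalized signal, for which the authors divided gene counts by a size factor per library from DESeq2. Upstream, SOAPnuke was used for read filtering, STAR for alignment to mm10 and featureCounts for counting of unique alignments, and the versions and the strand setting are not given in the sources used here. All 12 columns were used. Genes without a read in any one library are not listed, and dividing by the smallest value of a library gave whole reads within 0.000313 reads, for 25719476 to 29105147 reads per library. Annotation came from GENCODE for mm10, with level per kb as normalized count per kb of merged exons.

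Values were tested as log2(normalized count + 1) with limma 3.58.1 (R 4.3.3), fitting 4 group means with a trended eBayes step, so folds of low genes are understated. Genes averaging under 10 normalized counts (755) were left out and 13404 were tested. The labels call the samples biological replicates. Values without overlap between 3 and 3 libraries reach a p of 0.1 at the smallest in an exact permutation test. The share of all tested genes without overlap was not counted, so non-overlap is given as a description only. The DEG threshold of the study was used (1.5-fold and p of 0.05 before adjustment), with Benjamini-Hochberg adjustment over the tested genes. On simulated data for cold against RT in Atf4WT, limma recovered 190 of 198 genes changed 3-fold among 13394 genes and called 251 of 13196 unchanged genes. The simulation held no smaller changes and no libraries that differed in cell markers, so these rates are not known for many of the changes given here. Alternatives were other pseudocounts and filters, a fit of only the groups compared, rescaling to the 75th percentile, a replicate block, a lymphocyte score as a covariate, an adjusted threshold, edgeR 4.0.16 and DESeq2 1.42.0 on the recovered reads, and each library left out. Leaving out both cold replicate 1 libraries, and both Atf4WT libraries high in skeletal muscle markers, was added after seeing the data.

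The genes named with values per library are those past the threshold in a pairwise comparison, at most the 12 with the smallest p-values in each, and Timp1 to Timp4, Mmp2, Mmp9, Mmp14, Adam10, Adam17, Adam12, Adamts1 and Adamts5. Mmp3, Adamtsl1 and Adam8 were added after their values were seen, and values per library of Tspan33 and Fmod are given too. Others are given by counts or, in groups of 5 or fewer, by name, and of each list at most 3 genes with the smallest p-values are named. Besides the matrix lists, the cell marker lists of adipocytes, B cells, T cells, macrophages, neutrophils, lymph node stroma, fibroblasts and progenitors, endothelium, smooth muscle and pericytes, skeletal muscle, epithelium and erythroid cells were summed. The genes and lists were chosen with earlier results of these data known.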

Additional observations from a re-analysis of the deposited data

Results flagged for a closer look

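The cold responses of the genotypes differed for 2 genes by the unadjusted test of the difference itself, taken as Atf4AKO minus Atf4WT on the log2 scale. Adamts18 differed by 1.45 (unadjusted p = 0.0218, limma) and Mmp25 by -2.47 (unadjusted p = 0.012, limma), with adjusted p-values of 0.575 and 0.489. In Mmp25 the 3 Atf4AKO cold values were below those of Atf4WT cold, and the T cell markers were high in the same Atf4WT cold libraries 1 and 2. With the lymphocyte score as a covariate the difference of Mmp25 was -0.30 and that of Adamts18 was 1.00, and neither passed the threshold. Without both cold replicate 1 libraries the differences were -2.13 and 1.21, also short of it.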

How the results depend on the processing

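The count for cold in Atf4WT was 12 and stayed between 8 and 16 over the alternatives, within 1.5 times of 12, and between 10 and 14 with one library left out. The called genes were not the same throughout. With the lymphocyte score 8 were called, and Adam11, Adam4, Adamts5, Adamts15, Adamtsl4, Mmp25 and Timp4 were not among them. For cold in Atf4AKO the count was 15, 8 with the adjusted threshold, and 9 to 16 with one library left out. For Atf4AKO against Atf4WT after cold it was 4, 2 with a filter at a mean of 50, with only the groups compared in the fit, with the lymphocyte score as a covariate and with DESeq2, 0 with the adjusted threshold and without both cold replicate 1 libraries, and 1 to 5 with one library left out. At RT it was 1, 0 with a filter at a mean of 50, with only the groups compared, with the replicate block, with the lymphocyte score, with the adjusted threshold, with edgeR and with DESeq2, and 0 to 2 with one library left out. For the difference of the cold responses it was 2, 0 with a filter at a mean of 50, with the adjusted threshold and without both cold replicate 1 libraries, 1 with DESeq2, 4 without both Atf4WT libraries high in skeletal muscle markers, and 1 to 3 with one library left out. A filter at 50 leaves fewer genes tested, among them neither Mmp25 nor Adamts18, and the cause was not tested for the other settings. Among the called genes, values changed sign with the lymphocyte score alone, where Mmp25 was at -0.14 for cold in Atf4WT and 0.20 for the genotypes after cold, and Adam11 was at 0.46 for the genotypes after cold.

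The replicate numbers are shared by the groups without a stated pairing. The deviations of same-numbered libraries from their group means correlated over the tested genes at -0.19 at the lowest (replicate 2, cold and RT in Atf4AKO) and 0.39 at the highest (replicate 1, both genotypes after cold), and not every library correlated best with its own number, so no pairing was assumed. With a replicate block the counts were 16 for cold in Atf4WT, 18 for cold in Atf4AKO, 5 after cold between genotypes, 0 at RT and 2 for the difference. With 3 libraries in each group, genes under about 20 normalized counts, such as Adam4, Adamts18 and Mmp25, rest on few reads, and rescaling the libraries to one 75th percentile moved the median of all genes by under 0.1 in each comparison.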

Other observations

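The markers of other cell types that whole iWAT can hold are given here as values. Of 3 tested lymph node stroma markers 3 were higher with cold in Atf4WT (median 2.03) and 3 lower in Atf4AKO against Atf4WT after cold (median -2.10). Of 2 tested neutrophil markers 0 were called in any comparison, with medians of 1.06 for cold in Atf4WT and -0.37 in Atf4AKO. Of 8 endothelial markers 1 was lower with cold in each genotype (medians -0.30 and -0.16), and of 6 smooth muscle and pericyte markers 2 were lower in Atf4WT and 1 in Atf4AKO (medians -0.38 and -0.11). Of 4 tested skeletal muscle markers, whose levels by library are given above, 1 epithelial marker and 1 erythroid marker 0 were called in any comparison.

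Of the 48 tested genes, 29 were called with cold in neither genotype. The matching share was not computed over all tested genes, so this count is not shown to be particular to these genes. Adam8, an ADAM of myeloid cells chosen here after its values were seen, was at 174, 66.4 and 166 normalized counts in Atf4WT at RT and at 359, 179 and 364 after cold, with a log2 fold change of 1.20 and an adjusted p of 0.273 in limma. In Atf4AKO it was at 94.8, 166 and 186 at RT and at 881, 54.4 and 199 after cold, so 1 group, Atf4AKO cold, held its highest and its lowest library.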
